A study of Mus musculus with 20 samples.

Results

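Lrtm1, Prr33, Stab1 and Nt5dc2 are 4 genes with 1 probe each that was called lower in left ventricles of sham-operated knockout mice. These mice had a cardiomyocyte deletion of the DNA methyltransferases Dnmt3a and Dnmt3b. The genes were chosen by the genotype difference on the sham arrays, where that probe had passed the call used here, so their sham values are given as a description. The TAC arrays, which were not used for that call, carry the tests. Earlier results of these data were known at the choice, so the TAC tests are not fully independent of it. Every probe annotated to one of these symbols was followed, which gave 8 of the 45281 probes on the Illumina bead chip and 4 of the 19057 genes it names. Lrtm1 had 2 probes (ILMN_1241151 and ILMN_2593694), Prr33 had 2 (ILMN_1254394 and ILMN_1259400), Stab1 had 3 (ILMN_1231355, ILMN_2544343 and ILMN_2727432) and Nt5dc2 had 1 (ILMN_2660519).

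Control mice (CTL) were homozygous for floxed Dnmt3a and floxed Dnmt3b and carried no Cre. Double knockout mice (DKO) carried the same floxed alleles, which lose the exons of the catalytic domains, together with MLCCre, a Cre recombinase under the promoter of the atrial myosin light chain gene Myl7, so that the deletion was directed to cells with an active Myl7 promoter. How many cardiomyocytes lost the enzymes, and whether other cells of the ventricle did, was not measured on these arrays. Male mice underwent a sham operation or transverse aortic constriction (TAC) at 10-12 weeks of age. In TAC a suture around the aortic arch loads the left ventricle with pressure. Left ventricular tissue was taken after 4 weeks, at 14-16 weeks. With 1 array for each mouse, 4 arrays per genotype were available for sham and 6 per genotype for TAC, and fewer cells of a type and less RNA per cell cannot be told apart in such whole-tissue RNA. The 3 Dnmt3a probes and Dnmt3b ILMN_3114377 lay between 37.2 and 61.3 on all arrays, near the array median, where a loss could hardly be seen. Dnmt3b ILMN_1252310 lay between 91.3 and 130. These probes differed between genotypes by -0.15 to 0.12 on the log2 scale. It is also not known here whether they lie in the deleted exons, so they check nothing about the labels. Intensities are given on a linear scale after normalization of the 20 arrays together, with a median of 53.9 per array. Sham and TAC values had been normalized separately before deposition, so that surgery and set cannot be told apart in any comparison of TAC with sham.

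Dnmt3a and Dnmt3b are the de novo DNA methyltransferases, which place methyl groups on cytosines that are followed by guanine (CpG), and promoter methylation is best known for going along with low transcription. Lrtm1 encodes a membrane protein with leucine-rich repeats and a single transmembrane segment. Stab1 encodes stabilin-1, a scavenger receptor of sinusoidal and lymphatic endothelium and of tissue macrophages, Nt5dc2 encodes a protein with a nucleotidase domain of the haloacid dehalogenase family, and Prr33, named for a proline-rich protein, is annotated as a long non-coding RNA in the reference used here.

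The promoters of the 4 genes are shown because CpG is the sequence these enzymes act on. The 250 bases before the start of each gene are printed 5′ to 3′ in the direction of transcription, from RefSeq on GRCm38.p6, with each CpG in capitals. They are chr14:29017958-29018207 on the plus strand for Lrtm1, chr7:142506772-142507021 on the minus strand for Prr33, chr14:31168642-31168891 on the minus strand for Stab1 and chr14:31130839-31131088 on the plus strand for the first of 2 annotated starts of Nt5dc2.
Lrtm1: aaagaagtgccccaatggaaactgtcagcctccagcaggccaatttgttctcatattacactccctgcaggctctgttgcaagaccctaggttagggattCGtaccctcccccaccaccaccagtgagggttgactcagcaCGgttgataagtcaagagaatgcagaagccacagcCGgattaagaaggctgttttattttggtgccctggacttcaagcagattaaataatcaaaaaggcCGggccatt
Prr33: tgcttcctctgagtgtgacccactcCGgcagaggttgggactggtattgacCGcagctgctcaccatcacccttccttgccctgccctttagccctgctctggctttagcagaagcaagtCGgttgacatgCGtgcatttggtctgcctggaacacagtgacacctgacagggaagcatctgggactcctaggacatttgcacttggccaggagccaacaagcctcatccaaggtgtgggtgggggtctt
Stab1: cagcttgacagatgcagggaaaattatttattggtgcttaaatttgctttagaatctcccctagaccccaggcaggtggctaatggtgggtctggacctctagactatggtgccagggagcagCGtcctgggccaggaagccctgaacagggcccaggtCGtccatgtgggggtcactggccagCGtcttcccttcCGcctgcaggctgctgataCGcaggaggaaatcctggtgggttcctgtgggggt
Nt5dc2: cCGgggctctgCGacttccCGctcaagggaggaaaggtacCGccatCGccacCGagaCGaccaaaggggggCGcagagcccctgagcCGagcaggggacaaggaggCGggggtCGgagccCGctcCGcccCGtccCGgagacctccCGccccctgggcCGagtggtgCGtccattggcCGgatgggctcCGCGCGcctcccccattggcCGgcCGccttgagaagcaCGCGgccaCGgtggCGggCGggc

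The letters CG, which read the same on both strands, occurred 4 times before Lrtm1, 4 times before Prr33 and 5 times before Stab1. The Nt5dc2 sequence held 29. Of 32851 promoters of the same length, 92.1% held at least 1 CpG, with a median of 6 and quartiles of 2 and 16. Thus 37.8% of promoters had fewer CpGs than Lrtm1 and Prr33, 44.4% had fewer than Stab1 and 93.2% had fewer than Nt5dc2. G and C made up 49.2% of the bases before Lrtm1, 56.8% before Prr33, 57.2% before Stab1 and 74.8% before Nt5dc2. The second annotated start of Nt5dc2 was preceded by 7 CpGs. The 4 genes therefore do not share a CpG density in this window, and methylation itself was not measured on these arrays.

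**Figure D1:**
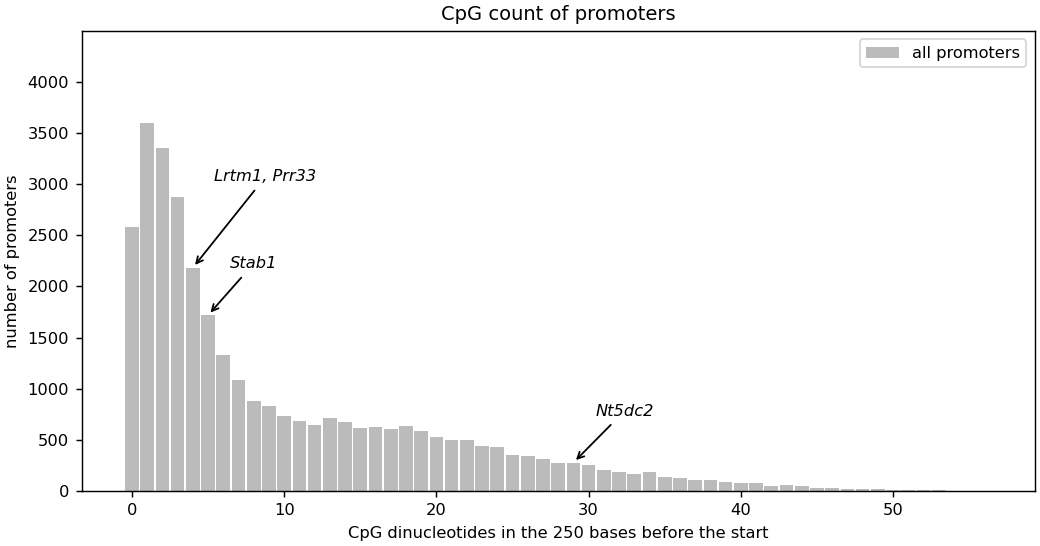
Number of promoters (vertical axis) by the count of CpG in the 250 bases before the start (horizontal axis), for 32851 promoters as grey bars, with arrows at Lrtm1, Prr33, Stab1 and the first start of Nt5dc2. Lrtm1, Prr33 and Stab1 lie at 4 or 5 CpGs, near the median of 6, and Nt5dc2 lies at 29.

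Lrtm1 was the member with the largest genotype difference. On probe ILMN_1241151, the brighter of its probes, the sham CTL arrays had intensities of 4216, 4319, 3190 and 4105 and the sham DKO arrays 548, 1950, 1573 and 925. After TAC the same probe gave 4806, 5619, 4500, 3058, 4574 and 4539 in CTL hearts and 644, 2949, 2069, 1140, 538 and 1406 in DKO hearts. Every DKO array was below every CTL array of the same surgery, although TAC DKO replicate 2 came close to TAC CTL replicate 4. After TAC such a separation held for 0.216% of all probes, and the sham arrays were those of the choice. After TAC the log2 difference was -1.86 (SE 0.32, 95% interval -2.53 to -1.19, limma adjusted p = 0.00616), which is a level 3.63-fold lower in DKO hearts.

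The other Lrtm1 probe, ILMN_2593694, is the one that passed the call in sham hearts. It measured 1967, 1938, 1600 and 1934 on the sham CTL arrays and 228, 806, 673 and 438 on the sham DKO arrays. Its TAC CTL values were 1821, 1936, 1630, 1070, 1828 and 1781 and its TAC DKO values 205, 895, 693, 375, 227 and 531. Again no DKO array reached a CTL array of the same surgery, in sham hearts on the arrays of the choice. After TAC this probe was 3.89-fold lower in DKO hearts (log2 difference -1.96, SE 0.31, limma adjusted p = 0.00153), and for both Lrtm1 probes an exact two-sided permutation test over the 6 CTL and 6 DKO arrays gave p = 0.00216, the smallest value that 924 splits allow. Both probes followed each other closely, with Pearson r = 0.98 over the 20 arrays.

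On the log2 scale, DKO hearts were also less alike in Lrtm1 than CTL hearts. On ILMN_1241151 the highest array exceeded the lowest 1.35-fold in sham CTL and 1.84-fold in TAC CTL, as compared to 3.56-fold in sham DKO and 5.48-fold in TAC DKO hearts. The SD of the log2 values was 0.20 and 0.29 in the CTL groups and 0.82 and 0.95 in the DKO groups. On the linear scale the SDs of this probe were nearer, at 519 and 828 in the CTL groups and 630 and 918 in the DKO groups. On ILMN_2593694 the linear SD after TAC was larger in CTL (314) than in DKO hearts (272), and in sham hearts smaller (174 against 256). The greater spread of DKO hearts therefore depends on the scale, and the difference in spread was not tested. Leaving out any single array kept the TAC call of both Lrtm1 probes in 20 of 20 fits. In sham hearts ILMN_2593694 was called in 14 of 20 such fits and ILMN_1241151 in 2 of 20.

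The probes of Prr33 did not give the same result. ILMN_1254394 had intensities of 182, 172, 188 and 247 in sham CTL and 92.7, 99.3, 108 and 136 in sham DKO hearts. After TAC the CTL arrays gave 128, 121, 133, 134, 169 and 189 and the DKO arrays 75.8, 104, 84.3, 61.5, 100.1 and 87.9. The genotypes did not overlap in sham hearts, on the arrays of the choice. They did not overlap after TAC either, where every DKO array was below every CTL array on 0.216% of all probes. After TAC the DKO level was 1.70-fold lower (log2 difference -0.77, SE 0.13, limma adjusted p = 0.00401, exact permutation p = 0.00216). The TAC DKO values of this probe were low, as the arrays had a median of 53.9 and a 75th percentile of 89.8, so its fold size is less certain. The probe ILMN_1259400 ranged from 275 to 403 in TAC CTL hearts (median 299.9) and from 261 to 405 in TAC DKO hearts (median 370.1), which overlap. Its log2 difference after TAC was 0.17 (95% interval -0.06 to 0.39, limma adjusted p = 0.693) and in sham hearts 0.22. Which transcript each probe reads is not known here, so the lower Prr33 signal is a result of ILMN_1254394 alone.

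**Figure D2:**
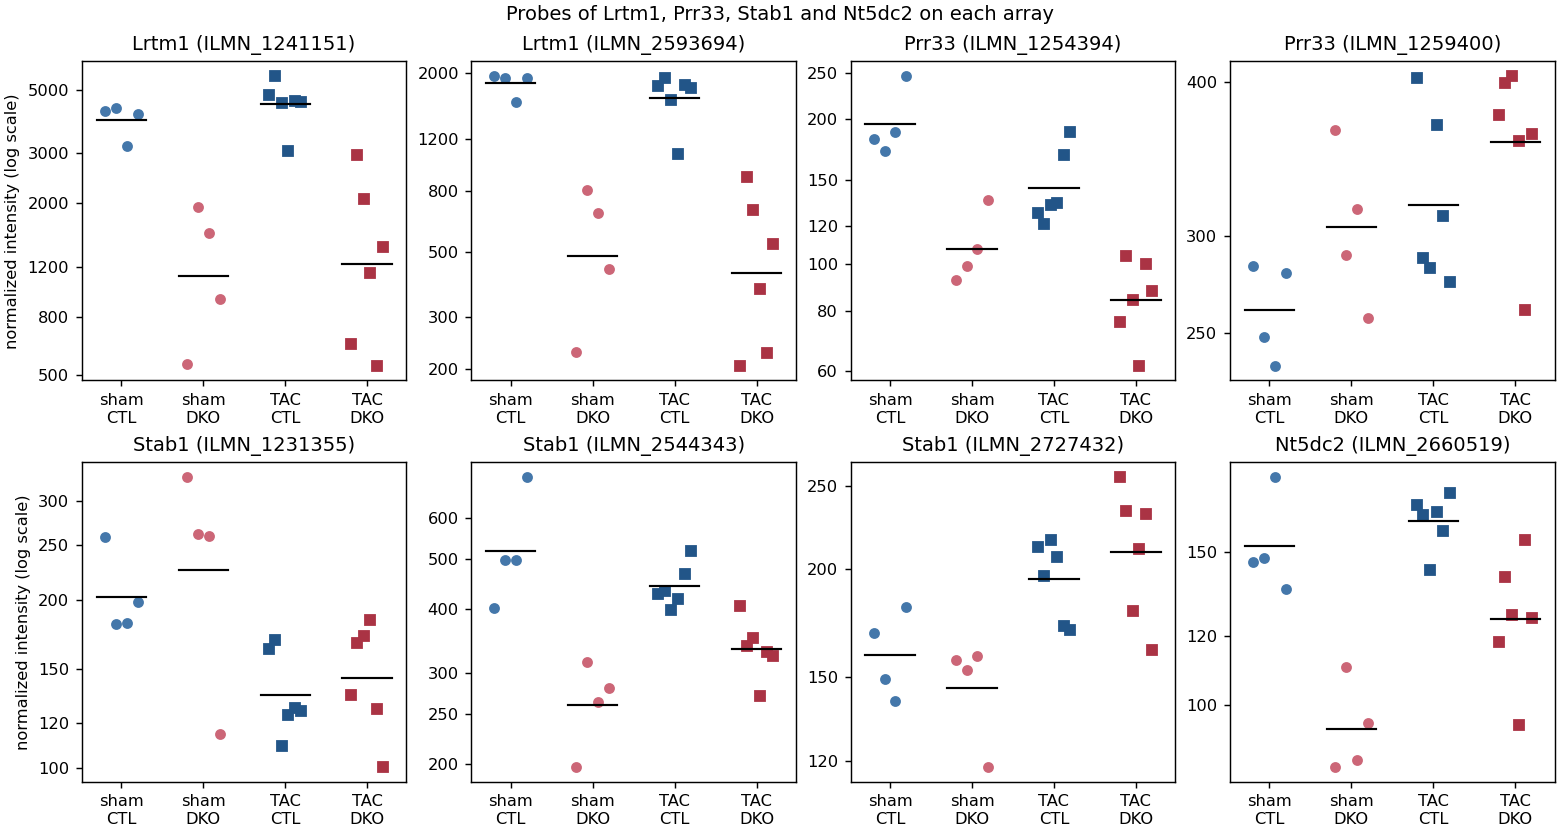
Normalized intensity (vertical axes, log scale, a separate range per panel) of the 8 probes on each array, with sham arrays as circles, TAC arrays as squares, CTL in blue and DKO in red, and black lines at the mean of the log2 values of each group. Both Lrtm1 probes and Prr33 ILMN_1254394 show no overlap between the genotypes within a surgery, whereas Prr33 ILMN_1259400, Stab1 ILMN_1231355 and Stab1 ILMN_2727432 overlap. The sham arrays are those on which the genes were chosen.

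Stab1 was lower on 1 of its 3 probes in sham hearts and on none after TAC by the call used here. ILMN_2544343 measured 401.5, 499, 498 and 723 in sham CTL and 197, 316, 264 and 281 in sham DKO hearts, where the groups did not overlap. After TAC it measured 427, 433, 397, 418, 468 and 519 in CTL and 405, 339, 350.2, 270.1, 329.6 and 323 in DKO hearts, and 5 of the 6 DKO arrays were below every CTL array. The share of all probes with this pattern was not counted. The log2 difference was -0.99 (SE 0.15) in sham hearts, on the arrays of the choice, and -0.40 (SE 0.12, 95% interval -0.65 to -0.15) after TAC, where it did not pass over all probes (limma adjusted p = 0.246). A permutation test of this probe alone gave an exact p of 0.00433 after TAC. The sham CTL array with the highest Stab1 value, replicate 4, was also the array with the highest mean of the endothelial list, at 0.38 above the mean of all arrays on the log2 scale against 0.07 to 0.13 on the other sham CTL arrays. Its macrophage list was the lowest, at -0.21 against -0.02 to 0.12 on the other sham CTL arrays. Its cardiomyocyte list was the highest, at 0.31 against 0.12 to 0.17. In the fit with array weights this array had the lowest weight of all (0.407). Without that array the sham difference of ILMN_2544343 was -0.83.

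The other Stab1 probes did not separate the genotypes. On ILMN_1231355 the TAC CTL arrays lay between 109 and 169 and the TAC DKO arrays between 100.2 and 184, with a log2 difference of 0.10 (95% interval -0.30 to 0.49). On ILMN_2727432 they lay between 170.0 and 216 and between 161 and 256, with a log2 difference of 0.11 (95% interval -0.11 to 0.32). Neither passed (limma adjusted p = 0.922 and 0.821). Probes of this gene were also little alike over the arrays, since ILMN_2544343 correlated at r = -0.29 with ILMN_1231355 and at 0.11 with ILMN_2727432.

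Nt5dc2, read by a single probe, had the smallest sham difference of the probes that chose the genes. It measured 146, 148, 183 and 136 in sham CTL and 84.7, 111, 86.2 and 95.1 in sham DKO hearts, without overlap on these arrays of the choice. These DKO values were low, near the 75th percentile of 89.8 of the arrays. After TAC it measured 169.9, 165, 143, 167, 158 and 175 in CTL and 118, 140.3, 127, 94.8, 155 and 126 in DKO hearts. Here 5 of the 6 DKO arrays were below every CTL array, a pattern whose share over all probes was not counted, and TAC DKO replicate 5 lay among the CTL values. The log2 difference was -0.70 (SE 0.12) in sham hearts and -0.38 (SE 0.10, 95% interval -0.58 to -0.18) after TAC, where it did not pass (limma adjusted p = 0.132; exact permutation p = 0.00433).

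In the TAC comparison, 3 of the 8 probes were therefore called lower in DKO hearts, both of Lrtm1 and 1 of Prr33, where a call is an adjusted p under 0.05 with a fold change over 1.5. Among all 45281 probes, 0.0155% were called lower after TAC (7 probes) and 0.0133% in sham hearts (6 probes), the latter being the calls that chose the genes. The same 3 member probes were the ones on which every TAC DKO array was below every TAC CTL array, which held for 0.216% of all probes. The remaining 5 probes had log2 differences of -0.40 to 0.17 after TAC.

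**Figure D3:**
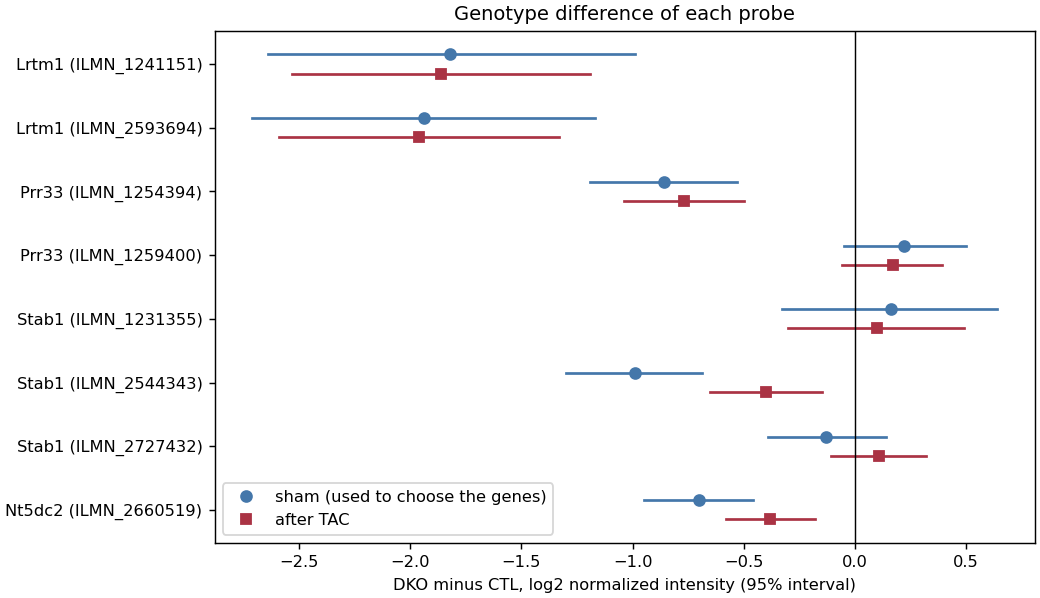
Log2 difference DKO minus CTL (horizontal axis, point with its 95% interval from limma) of each probe in sham hearts (circles) and after TAC (squares). The Lrtm1 probes lie near -1.9 in both surgeries, Prr33 ILMN_1254394 at -0.86 and -0.77, and Stab1 ILMN_2544343 and Nt5dc2 are nearer to 0 after TAC than in sham hearts.

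At the threshold of the sham choice, Nt5dc2 was the member just inside (1.63-fold lower), and the probes that passed the adjusted p but missed the fold were those of Ahrr (1.35-fold), Rapgefl1 (1.35-fold) and Apmap (1.28-fold). Lrtm1 ILMN_1241151 had a sham difference of -1.82 but an adjusted p of 0.0945 and so lay just outside. The other probes called lower in sham hearts were those of Bdh1, an enzyme of ketone body metabolism (log2 difference -1.28), and Egf, the epidermal growth factor (-0.94). After TAC the other called probes were those of Nrn1, the neuritic protein neuritin (-1.33), Egf (-0.94), Cdh4, which encodes R-cadherin (-0.85), and a probe without a gene name, ILMN_2688345 (-0.64).

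The genotype difference did not change detectably with surgery in any member. The interaction of genotype and surgery was -0.04 (SE 0.51) and -0.02 (SE 0.48) for the Lrtm1 probes, with 95% intervals of -1.11 to 1.02 and -1.02 to 0.98 that leave room for a change of up to 1 log2 unit in either direction. For Prr33 ILMN_1254394 it was 0.09 (95% interval -0.33 to 0.51). The smaller differences of Stab1 ILMN_2544343 and Nt5dc2 after TAC gave interactions of 0.59 (SE 0.19, unadjusted p = 0.00544) and 0.32 (SE 0.15, unadjusted p = 0.0448), but both had an adjusted p of 0.939 in limma. Among all probes, 0.00221% were called for the interaction. These interactions also include the sham arrays on which the genes were chosen.

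Of the 8 member probes 1 was called between TAC and sham hearts, and in these comparisons the sham arrays of the choice take part as well. Lrtm1 differed between TAC and sham by 0.18 and -0.17 in CTL and by 0.13 and -0.19 in DKO hearts, all with an SE of 0.34 to 0.36, and the signs differed between its probes. In order of the mean log2 level of ILMN_1241151, TAC CTL (12.12) and sham CTL (11.94) came first and TAC DKO (10.26) and sham DKO (10.13) last, and within each genotype the surgeries did not differ beyond their spread. The called probe was Stab1 ILMN_1231355, lower after TAC in DKO hearts (log2 difference -0.64, SE 0.21, limma adjusted p = 0.0271), where 6.74% of all probes were called. In CTL hearts, where 5.17% were called, it differed by -0.58 (adjusted p = 0.0527). Its sham DKO values of 332, 262, 259 and 115 overlapped with its TAC DKO values of 135, 167, 172, 184, 127 and 100.2, and the call was lost without sham DKO replicate 1, 2 or 3 or TAC DKO replicate 6, with adjusted p-values between 0.0614 and 0.143. Prr33 ILMN_1254394 differed by -0.44 in CTL hearts (adjusted p = 0.0293), and Nt5dc2 by 0.42 (adjusted p = 0.00477) and Stab1 ILMN_2727432 by 0.53 (adjusted p = 0.0014) in DKO hearts. These 3 had a fold change below 1.5. Under median centring, Prr33 ILMN_1254394 was called lower after TAC in CTL (-0.86, adjusted p = 3.44e-05) and DKO hearts (-0.64, adjusted p = 0.000965), and so were Stab1 ILMN_2544343 (-0.70, adjusted p = 0.00032) and ILMN_1231355 (-1.0, adjusted p = 0.000999) in CTL hearts. With this centring the TAC effects of all 8 probes were lower in both genotypes, Nt5dc2 in CTL hearts turned from 0.10 to -0.31, and Nt5dc2 and Stab1 ILMN_2727432 in DKO hearts were at 0.11 each.

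Lrtm1, Nt5dc2 and Stab1 lie on chromosome 14, and Prr33 lies on chromosome 7. Lrtm1 sits within the span of Cacna2d3, a calcium channel subunit gene, and 46 annotated genes separate it from Nt5dc2, which is followed directly by Stab1. Nt5dc2 and Stab1 are on opposite strands and overlap at their ends by 108 bases. Of the 46 genes between Lrtm1 and Nt5dc2, 19 were measured, with 43 probes. None was called in either genotype comparison, and the median log2 differences were 0.03 in sham and -0.02 in TAC hearts. At an unadjusted p under 0.05, 4.65% of these probes passed in sham hearts (Mustn1 ILMN_2658461 at -0.39 and Il17rb at 0.16), against 5.55% of all probes. After TAC 2.33% passed (Selenok at -0.27), against 8.99% of all probes. After TAC, Lrtm1 was the only one of the 3 members on chromosome 14 that was called.

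None of the nearest measured neighbours was called either, where at the shares of all probes so few would mostly hold no call. Among the 4 probes of other genes near Lrtm1, 25% had an unadjusted p under 0.05 in sham and 25% in TAC hearts, in each case a single probe of Wnt5a. Near Prr33 it was 14.3% of 7 probes in sham hearts, a single probe of Ctsd, and none after TAC, and near Nt5dc2 and Stab1 none in either surgery. Cacna2d3, whose span holds Lrtm1, differed by -0.15 (limma adjusted p = 0.937) in sham and by -0.09 (adjusted p = 0.771) in TAC hearts at a low intensity of 50.4 to 71.7 on all arrays. Wnt5a, a secreted signalling ligand 5 genes away, was not called on any of its 3 probes. On ILMN_2511913 it differed by -0.39 (limma adjusted p = 0.862) in sham and by -0.17 in TAC hearts, and ILMN_1245294 differed by 0.17 after TAC (adjusted p = 0.507). Around Nt5dc2 and Stab1, the 5 probes of Pbrm1, a chromatin remodelling subunit, lay between -0.09 and 0.08 in sham and between -0.10 and 0.16 in TAC hearts. The 5 probes of Nisch, which encodes the imidazoline receptor protein nischarin, lay between -0.01 and 0.12 and between -0.11 and 0.06. Tnnc1, the cardiac troponin C gene, differed by -0.09 and 0.04. Prr33 overlaps Lsp1 and Tnnt3 in the annotation, by 3789 and 8001 bases, and the positions of the probes within these genes are not known here. Lsp1, a leukocyte protein gene, differed by -0.03 and 0.01, and Tnnt3, the fast skeletal troponin T gene, by -0.63 and -0.05 (limma adjusted p = 0.937 and 0.975). Tnni2 and Mrpl23 were not called either (-0.63 and -0.11 in sham, 0.18 and 0.09 in TAC hearts), and Ctsd, the cathepsin D gene, differed by -0.28 in sham hearts (limma adjusted p = 0.893).

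**Figure D4:**
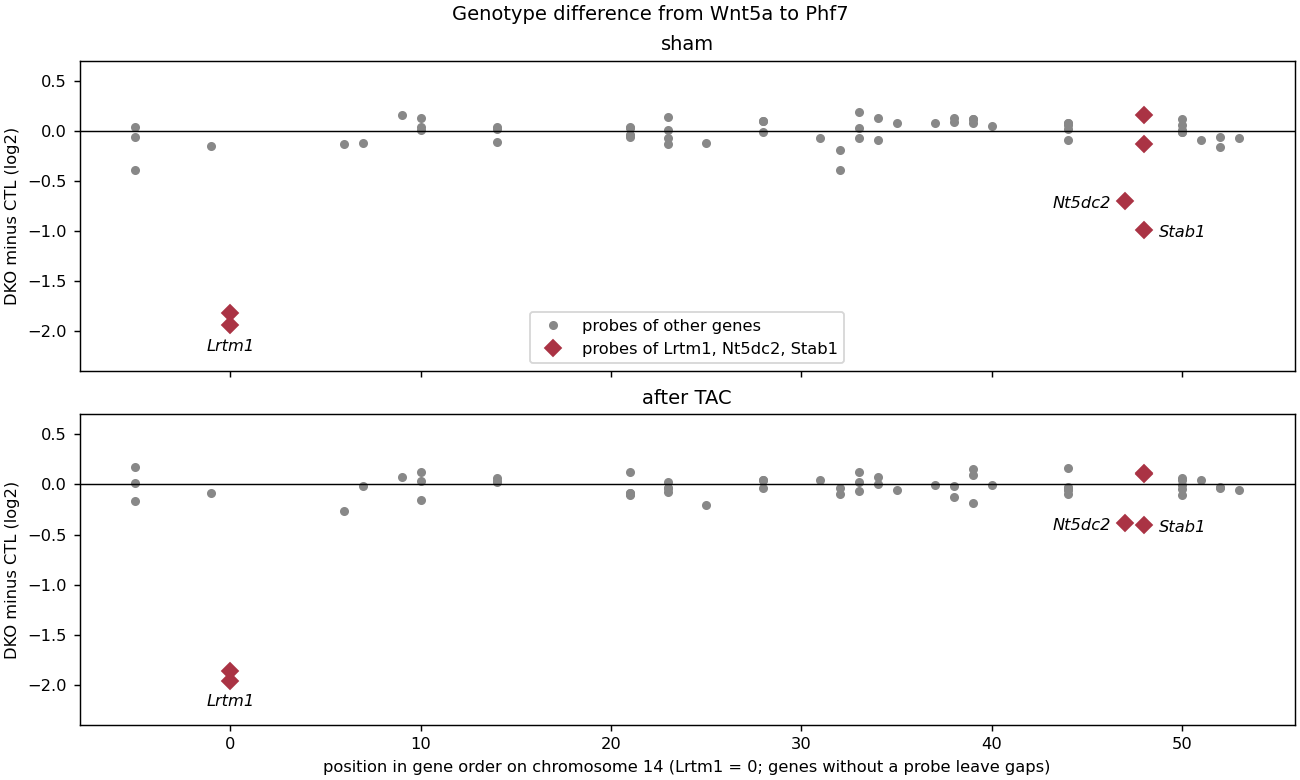
Log2 difference DKO minus CTL (vertical axes) in sham hearts (upper panel) and after TAC (lower panel) of each probe from Wnt5a to Phf7 on chromosome 14, placed by gene order with Lrtm1 at 0 (horizontal axis), with other genes in grey and Lrtm1, Nt5dc2 and Stab1 in red. The grey probes stay between -0.39 and 0.19 and the Lrtm1 probes lie between -1.96 and -1.82.

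The probes most like Lrtm1 were sought over all named genes, by Pearson's r of the log2 values with its brightest probe, as a description across arrays that share the genotype difference. Over the 20 arrays these were Egf (r = 0.88), Epdr1 (0.84), Golm1 (0.84 and 0.80 on its 2 probes) and Slc9a2 (0.78). Egf ILMN_2684104 ranged from 156 to 166 in sham CTL, from 68.1 to 96.1 in sham DKO, from 106 to 173 in TAC CTL and from 53.1 to 106 in TAC DKO hearts. When the group means were removed, so that only differences among mice of a group remained, the closest were Mybphl (r = 0.87), Wnt5a ILMN_2511913 (0.83) and the integrin gene Itga3 (0.80).

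Mybphl, a myosin binding protein gene typical of the atria, ran with Lrtm1 among the DKO mice of a group but against it between genotypes. It measured 51.3 to 78.3 on all CTL arrays, near the array median, and 147, 876, 1152 and 255 in sham DKO and 168, 1207, 532, 118, 77.8 and 272 in TAC DKO hearts. Among the TAC DKO arrays replicates 2, 3 and 6 were the highest, in this order, for both Mybphl and Lrtm1 ILMN_1241151, and replicate 5 was the lowest for both. The CTL arrays did not show this. Mybphl was highest on sham CTL replicate 3 (62.9) and TAC CTL replicate 4 (78.3), where Lrtm1 was lowest of its group (3190 and 3058). Over all 20 arrays Mybphl and Lrtm1 ILMN_1241151 correlated at -0.38. Mybphl differed by 2.86 (SE 0.61) in sham and 2.05 (SE 0.50) in TAC hearts, without passing (limma adjusted p = 0.0819 and 0.100). Of the 13 markers of the atrial list, 12 were measured. After TAC, 5 were higher and none lower at an unadjusted p under 0.05, which 11.6% of all genes had in either direction. The list was chosen with earlier results known and holds Mybphl and Stard10 (1.12 in sham and 0.91 in TAC hearts). A higher list level in DKO hearts is thus partly built in, and the level without these genes was not computed. The mean log2 level of the list relative to all arrays was -0.49 to -0.40 in sham CTL and -0.17 to 0.23 in sham DKO hearts. It was -0.39 to 0.15 in TAC CTL and -0.05 to 1.21 in TAC DKO hearts, and TAC DKO replicates 2 and 3 stood highest at 0.85 and 1.21. Without these 2 arrays, a setting chosen after seeing the data, the TAC difference of Lrtm1 was -2.36 and -2.41 (limma adjusted p = 0.000106 and 7.08e-05). The same 2 arrays had the highest Lrtm1 values of the TAC DKO group on both probes. Leaving them out therefore had to enlarge the difference whatever their atrial level, and nothing about atrial RNA follows from it. The part of atrial RNA in the spread of Lrtm1 was not tested.

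**Figure D5:**
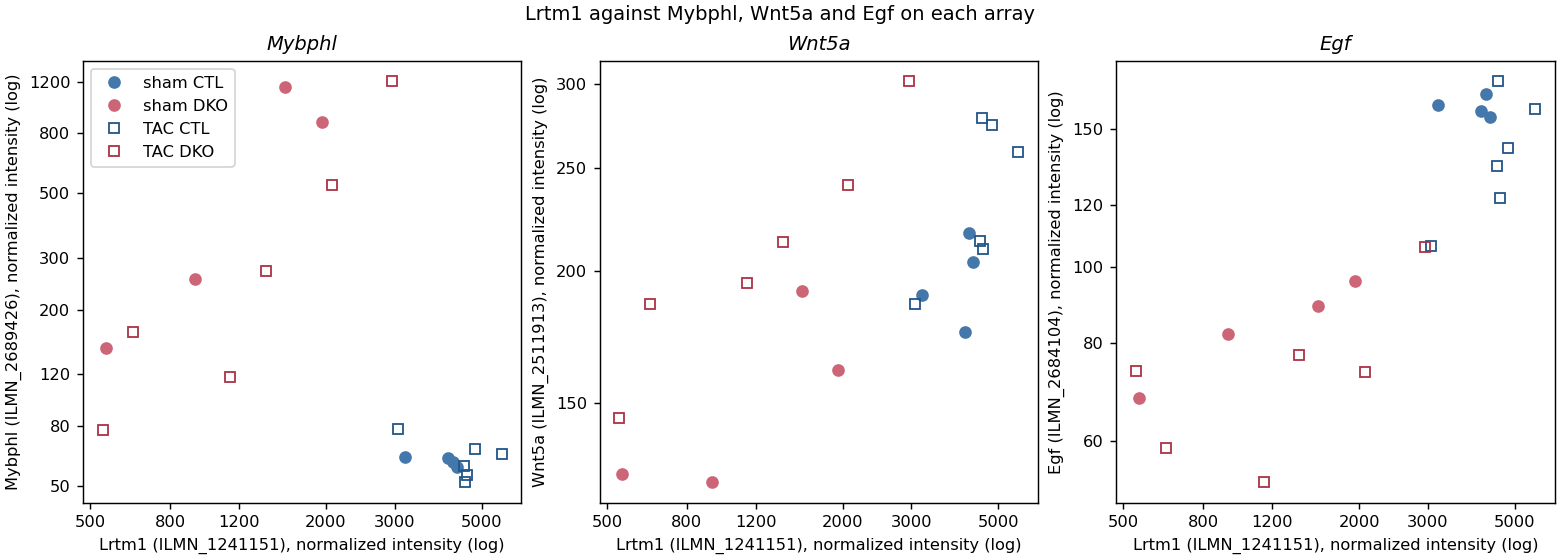
Normalized intensity of Mybphl, Wnt5a and Egf (vertical axes, log scale) against Lrtm1 ILMN_1241151 (horizontal axes, log scale) on each of the 20 arrays, with sham arrays filled and TAC arrays open, CTL in blue and DKO in red. Mybphl stays between 51.3 and 78.3 on CTL arrays, where it does not rise with Lrtm1, and is mostly higher where Lrtm1 is higher among DKO arrays. With group means removed r is 0.87 over all 20 arrays. Egf goes along with Lrtm1 over all arrays (r = 0.88).

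The same search for the other members gave different genes. Nt5dc2 was most like Btbd11 and Dnajc30 (both r = 0.84), then Myorg, Rhot2 and Snx21 (all 0.82), and with group means removed most like Ung and Cd1d1 (both 0.84) and Dnajc30 (0.82). Stab1 ILMN_2544343 was most like Klk8 (0.83), Mrpl2 (0.80), Camk2b (0.79), Tmem177 and E2f7 (both 0.77), and within groups most like Mrpl2 (0.87), C1qtnf12 and Swsap1 (both 0.83). The brighter Prr33 probe, ILMN_1259400, followed Cytip and Apobec1 (both 0.86), Arhgef25, Tdrd9 and Aph1a (all 0.83), and within groups Ttc9 (0.86), Aph1a and Cytip (both 0.85). For Prr33 ILMN_1254394, looked at after its values were seen, the closest were Hcn2 (0.90), Slc4a3 (0.89), Egf and Gpsm1 (both 0.88) and Tecr (0.87), and within groups H4c1 (0.92), Ipo13 (0.89) and Akap8 (0.86). The members themselves were mostly less alike once the group means were removed. Lrtm1 ILMN_1241151 correlated at 0.71 with Stab1 ILMN_2544343, at 0.67 with Nt5dc2 and at 0.67 with Prr33 ILMN_1254394, over the 20 arrays, and at 0.21, 0.08 and 0.11 within groups. Prr33 ILMN_1254394 and Stab1 ILMN_2544343 kept 0.57 of 0.74.

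Genes related to the members by family were mostly not called. Over all genes 0.241% were called after TAC, so that lists of this size would mostly hold no call. Of 57 measured genes for leucine-rich repeat membrane proteins, Lrtm1 was the only one called after TAC, and 2 were higher and 2 lower at an unadjusted p under 0.05, Lrtm1 included, with Rtn4rl1, a Nogo receptor relative, at 0.23 (adjusted p = 0.258) and Slitrk5 at 0.15. Over all genes with the brightest probe for each, 11.6% had such a p after TAC and 6.91% in sham hearts, and the median difference was 0.00 and -0.01. Of 25 scavenger receptors none was called after TAC. Those with an unadjusted p under 0.05 were 3, a share near that of all genes, and were lower. They were Stab1 (-0.40), the fatty acid translocase Cd36 (-0.21) and the lipoprotein receptor Scarb1 (-0.14). Of 15 nucleotidase genes none was called after TAC, with Nt5dc2 at -0.38, the cytosolic nucleotidase Nt5c at -0.29 and the ecto-nucleotidase Nt5e (CD73) at 0.43 as those with the smallest p. Of 7 measured calcium channel alpha2delta and gamma subunit genes, the family of the gene around Lrtm1, none was called, and Cacna2d1 (0.33), Cacng7 (0.12) and Cacna2d3 (-0.09) had the smallest p after TAC. The medians of these 4 lists after TAC were 0.02, -0.07, 0.00 and -0.01.

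Markers of the cells that could carry these transcripts are read against 0.173% of all genes called between genotypes in sham and 0.241% in TAC hearts, so that lists of this size would hold few calls or none at the same share. None of 20 endothelial markers was called, with 4 lower and 0 higher at an unadjusted p under 0.05 after TAC, where 11.6% of all genes had such a p in either direction, among them Sox17 (-0.34), Erg (-0.12) and Sox18 (-0.25), and a list median of -0.06. The endothelial list lay at 0.07 to 0.38 in sham CTL, -0.06 to 0.13 in sham DKO, -0.10 to 0.00 in TAC CTL and -0.14 to -0.01 in TAC DKO hearts. None of 7 lymphatic markers was called, with Flt4, the receptor of lymphatic growth factors, at -0.27, Prox1 at 0.24 and Ccl21a at -0.34 after TAC (adjusted p = 0.126, 0.228 and 0.566). The lymphatic list lay at 0.10 to 0.31 in TAC CTL and -0.04 to 0.32 in TAC DKO hearts. None of 21 macrophage markers was called, and Fcgr1 (-0.24), Gas6 (0.18) and Adgre1 (-0.28) had the smallest p after TAC. Their list lay at -0.11 to 0.24 in TAC CTL and -0.15 to 0.16 in TAC DKO hearts. The part of these cell types in the Stab1 values was not tested.

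The cardiomyocyte markers were present on all arrays, among them the ventricular myosin light chain genes Myl2, at 23464 to 31764, and Myl3, at 27015 to 31764. Of the atrial markers, Myl7 lay at 38.2 to 168, whereas Myl4 ranged from 134 to 4917 and sarcolipin (Sln) from 41.1 to 1147. Nppa (2607 to 31764), Stard10 (90.2 to 520) and Dkk3 (73.5 to 638) also ranged widely. Bmp10, Nr2f2, Tbx5 and Fgf12 stayed between 39.6 and 85.5 on all arrays. The arrays thus differed in some atrial transcripts and not in others. None of 14 cardiomyocyte markers was called between genotypes, with Ckm (-0.24), Mybpc3 (-0.13) and Myh6 (-0.24) having the smallest p after TAC. Of 27 skeletal muscle genes Tnnt1, the slow troponin T, was called higher in both surgeries (1.26 and 1.58), followed by Atp2a1 (1.98 after TAC, adjusted p = 0.244) and Neb (0.16), and sham CTL replicate 2 had a list level of 0.91 against -0.16 to -0.08 on the other sham CTL arrays. On that array Lrtm1 was at 4319 and 1938 and Prr33 ILMN_1254394 at 172, and the part of skeletal muscle RNA in the sham values of Tnnt3 and Tnni2 beside Prr33 was not tested. Of the atrial markers Stard10 was called higher in both surgeries (1.12 and 0.91), and Myl4 differed by 1.42 after TAC (adjusted p = 0.368). No gene was called among 11 of the DNA methylation machinery (Tet1 0.30, Mbd1 -0.28 and Dnmt1 -0.20 after TAC), 12 fibroblast markers (Tcf21 0.36, Dcn -0.20, Postn -0.12), 12 smooth muscle and pericyte markers (Abcc9 0.45, Cspg4 0.32, Cnn1 0.17), 7 epicardial markers (Lrrn4 -0.07, Krt19 -0.07, Tbx18 0.08) and 4 red blood cell genes (Hba-a1 0.21, Hbb-b2 -0.11, Slc4a1 0.09). Of these, Tcf21 and Abcc9 passed the adjusted p (0.0282 and 0.0175) but not the fold.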

How the data were processed

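Illumina bead chips were hybridized with left ventricular RNA of 20 mice. The authors processed the scans with GenomeStudio 2010.3, as given in the submitters' processing notes, and deposited linear intensities for 45281 probes. Background correction was not given in the sources used here. When sorted, at least 97.6% of values were equal to within 0.2% between any 2 sham arrays and 99.9% between any 2 TAC arrays, against 0.404% between a sham and a TAC array, so the sets had been quantile normalized apart (medians 47.5 and 58.6). Intensities were log2 transformed and quantile normalized over the 20 arrays, which removed a shift of 0.30. Groups came from the sample labels.

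Differences were estimated in limma 3.58.1 (R 4.3.3) from the 4 group means of every probe, where 16 residual degrees of freedom were joined by 6.64 of the prior. Contrasts were genotype in sham and TAC hearts, TAC in CTL and DKO hearts, and their interaction. P-values were adjusted by Benjamini-Hochberg over all probes, and a probe was called when the adjusted p was under 0.05 and the change exceeded 1.5-fold. Permutation tests were exact and two-sided. The number of arrays limits the precision. Of the probes, 34885 name 1 gene, 18 several and 10378 none, and symbols were updated through gene identifiers for 34807. Probe positions were not used, because no build is named for them, and the order of genes is that of GRCm38.p6. Promoters were read in the direction of transcription, and 1647 of 1647 overlapping pairs on opposite strands matched as reverse complements. Lists were read with the brightest probe of each gene. The members and the 15 lists were chosen with earlier results of these data known. Genes were named if they were members, Dnmt3a or Dnmt3b, among the 5 probes most correlated with the brightest probe of a member (or the 3 after removing group means), among the nearest neighbours or those with an unadjusted p under 0.05, among the called members of a list or its 3 smallest p-values after TAC, or called lower in DKO hearts. The fit was tested on simulated data. Alternatives were no further normalization, median centring, 16 added before the log2, the brighter probes only, only the groups compared, an intensity trend with robust variances, array weights, replicate numbers as a block, no fold minimum, and each array left out.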

Additional observations from a re-analysis of the deposited data

Results flagged for a closer look

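Of 32 sets of values, each a probe in a group, 4 held an array whose gap to the nearest other array was larger than Dixon's limit at 95%, and chance alone flags about 5% of such sets. Lrtm1 ILMN_2593694 was at 1600 on sham CTL replicate 3, below the next value of 1934. The same probe was at 1070 on TAC CTL replicate 4, below the next value of 1630. Prr33 ILMN_1259400 was at 261 on TAC DKO replicate 5, below the next value of 359. Stab1 ILMN_2727432 was at 118 on sham DKO replicate 4, below the next value of 153.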

How the results depend on the processing

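In the genotype comparison after TAC, Lrtm1 ILMN_2593694 and Prr33 ILMN_1254394 were called under all 29 other settings. Lrtm1 ILMN_1241151 was called under 28 and missed the threshold with an intensity trend and robust variances (-1.86, adjusted p = 0.0574). The other 5 probes were called under none, although Nt5dc2 passed the adjusted p without TAC DKO replicate 5 (-0.44, adjusted p = 0.0362) and missed the fold, and Stab1 ILMN_1231355 turned to -0.02 without TAC DKO replicates 2 and 3, a setting chosen after seeing the data. The number of all probes called lower after TAC was 4 with only the groups compared, 4 with an intensity trend and robust variances, 11 with array weights and 28 without a fold minimum, against 7. In sham hearts, where 6 were called, omitting 1 array lowered it to 2 (CTL replicate 3 of the sham set), 1 (DKO replicate 1) or 3 (DKO replicate 3). With 1 array left out, the sham call held in 14 of 20 fits for Lrtm1 ILMN_2593694 and 15 of 20 for Prr33 ILMN_1254394. It held in 17 of 20 for Nt5dc2 and 20 of 20 for Stab1 ILMN_2544343. The causes were not tested.

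TAC effects depend on the scaling, since the median effect of all probes was 0.28 in CTL and 0.29 in DKO hearts without further normalization, against 0.01 and 0.02. Without further normalization the sign turned for Nt5dc2 in CTL hearts (-0.01) and Lrtm1 ILMN_1241151 in DKO hearts (-0.04). With median centring it turned in CTL hearts for Lrtm1 ILMN_1241151 (-0.28), Nt5dc2 (-0.31), Prr33 ILMN_1259400 (-0.19) and Stab1 ILMN_2727432 (-0.13), and in DKO hearts for Lrtm1 ILMN_1241151 (-0.34), Prr33 ILMN_1259400 (-0.25) and Stab1 ILMN_2544343 (-0.12). The call of Stab1 ILMN_1231355 in DKO hearts was also lost with only the groups compared, with an intensity trend and robust variances and with the replicate block, and in CTL hearts this probe was called under 6 of the 28 other settings. With 1 array left out, the effect in DKO hearts ranged from -0.21 to 0.40 for Lrtm1 ILMN_1241151 and from -0.55 to 0.06 for ILMN_2593694.

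No interaction of a member was called under any setting, and those near 0 changed sign. With array weights they were 0.06 and 0.07 for Lrtm1 ILMN_1241151 and ILMN_2593694. With 1 array left out they ranged from -0.39 to 0.22 and from -0.38 to 0.23 for these probes, from -0.02 to 0.20 for Prr33 ILMN_1254394, from -0.14 to 0.03 for Prr33 ILMN_1259400 and from -0.38 to 0.13 for Stab1 ILMN_1231355.

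The labels do not say whether replicate numbers pair the mice or mark a batch. Arrays of the same number in both genotypes correlated in their deviations from the group means at 0.014 to 0.218 for sham and -0.186 to 0.38 for TAC. Arrays of different numbers were not compared, so these values do not settle it. With the replicate block, the TAC differences of the called probes were -1.86 and -1.96 for Lrtm1 and -0.77 for Prr33 ILMN_1254394 (limma adjusted p = 0.000962, 0.000411 and 0.00253), and 10 probes in place of 7 were called lower.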
